A study of Mus musculus with 6 samples.

Results

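The Speer gene cluster lies on mouse chromosome 5, and its members here were all enriched regions (broad peaks) of 6 sperm MNase-seq lists that fell between bases 14000001 and 16000000 of build mm10. There were 270 such peaks among 83628 in the 6 lists, and they merged into 113 of 44749 distinct regions. In MNase-seq, micrococcal nuclease digests accessible DNA and leaves the DNA that is wrapped in nucleosomes. Sperm came from the epididymis and vas deferens. The groups were 4 libraries from wild-type C57BL6 mice (WT 1 to WT 4) and 2 from mice with the protamine 1 substitution K49A, a lysine exchanged for an alanine (K49A 1 and K49A 2). The sources used here do not give the age of the mice, the copies of the mutant allele, the strain of the mutants or the number of mice behind a library, so the spread between libraries may be partly technical. All libraries shared one preparation with DNase I treatment, DTT decondensation and digestion with 5 and then 15 units of MNase, followed by excision of mononucleosome-sized DNA from a gel. Peak lists hold no expression values, so the cell type was not checked against marker genes here.

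Protamines are small basic proteins that replace most histones when the sperm nucleus is packed, and nucleosome-sized fragments mark places where histones are still bound. Speer genes encode spermatogenesis-associated glutamate-rich proteins, a family that is expressed in the testis and has many near-identical copies in the mouse genome. In such a cluster a short read can match more than one copy, and the sources used here do not say how such reads were treated. The window also holds Sema3e and Pclo and the beginning of Cacna2d1, which belong to other families. Sema3e encodes a secreted axon guidance protein, Pclo a scaffold of the presynaptic active zone, and Cacna2d1 an auxiliary subunit of voltage-gated calcium channels.

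The window was chosen because peaks of the K49A lists were dense in it, so the number, position, fold and overlap of its peaks are given as a description and were not tested. The peaks nearest to the borders show how the window sits. Before it, the last peak on chromosome 5 ended at 8367838 in K49A 1 and at 3013105 in K49A 2, and after it the first peak began at 17467705 and 17467702. Inside it, the first and last K49A peaks began at 14933751 and 15711853 in K49A 1 and at 14900077 and 15714023 in K49A 2. In WT the last peak before the window began between 12383297 (WT 1) and 13880208 (WT 4), and the first inside it began between 14025120 and 14025582.

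The copies of the cluster are shown by 250 bases before the transcript starts of a promoter table, taken from RefSeq on build GRCm38.p6 (mm10 is the name of this assembly at UCSC). These starts can lie inside the span of the gene in the gene table, as they do for Gm10354, Gm17019, Speer4c, Pclo and Cacna2d1. All 9 protein-coding genes of the K49A-rich stretches matched an entry (Gm9758, Speer4e, Gm10354, Gm17019, Gm21149, Gm21190, Gm21083, Speer4d and Speer4c). Aligned to Speer4c over 185 to 250 bases, the other genes were 97.6 to 98.9% identical, so the genes without a Speer symbol are copies of the same unit by this measure. The sequences shown are those of Speer4c as the reference copy, of the 4 copies with a peak of any library in these bases, and of Pclo as a gene outside the family. Capitals mark bases under a peak, which was a WT 3 peak at Speer4e and Gm17019, a WT 1 peak at Gm10354 and Gm21190, and WT 3 or WT 4 peaks at Pclo. Sequences run 5′ to 3′ on the strand of the gene.
Speer4c (chr5:15714272-15714521, minus strand): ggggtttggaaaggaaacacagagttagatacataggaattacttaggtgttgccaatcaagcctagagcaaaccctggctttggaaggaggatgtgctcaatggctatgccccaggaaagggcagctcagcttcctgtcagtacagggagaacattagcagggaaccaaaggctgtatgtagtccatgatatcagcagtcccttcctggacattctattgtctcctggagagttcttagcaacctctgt
Speer4e (chr5:14938476-14938725, minus strand): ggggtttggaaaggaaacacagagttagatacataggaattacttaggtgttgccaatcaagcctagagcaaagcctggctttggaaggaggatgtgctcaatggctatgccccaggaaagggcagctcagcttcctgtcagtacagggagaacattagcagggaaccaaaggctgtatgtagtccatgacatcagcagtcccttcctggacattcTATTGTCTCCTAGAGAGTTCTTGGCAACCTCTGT
Gm10354 (chr5:14978900-14979149, minus strand): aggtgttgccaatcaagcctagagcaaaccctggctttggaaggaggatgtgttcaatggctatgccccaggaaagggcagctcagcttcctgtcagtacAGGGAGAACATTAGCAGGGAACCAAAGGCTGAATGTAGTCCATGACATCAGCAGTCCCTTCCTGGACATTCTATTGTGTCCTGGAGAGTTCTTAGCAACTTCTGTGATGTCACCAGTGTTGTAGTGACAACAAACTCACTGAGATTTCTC
Gm17019 (chr5:15033008-15033257, minus strand): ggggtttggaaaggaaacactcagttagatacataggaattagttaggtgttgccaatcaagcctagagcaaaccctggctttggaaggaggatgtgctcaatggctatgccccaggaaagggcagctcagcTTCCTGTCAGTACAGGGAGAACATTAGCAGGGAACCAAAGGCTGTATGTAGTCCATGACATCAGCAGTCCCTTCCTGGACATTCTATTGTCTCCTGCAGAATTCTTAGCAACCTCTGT
Gm21190 (chr5:15529223-15529472, minus strand): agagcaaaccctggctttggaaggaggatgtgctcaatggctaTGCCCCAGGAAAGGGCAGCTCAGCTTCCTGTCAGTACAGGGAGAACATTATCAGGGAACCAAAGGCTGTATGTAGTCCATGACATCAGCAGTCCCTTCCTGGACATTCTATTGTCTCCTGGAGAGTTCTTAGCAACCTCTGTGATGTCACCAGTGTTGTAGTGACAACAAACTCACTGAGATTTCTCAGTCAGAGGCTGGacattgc
Pclo (chr5:14514668-14514917, plus strand): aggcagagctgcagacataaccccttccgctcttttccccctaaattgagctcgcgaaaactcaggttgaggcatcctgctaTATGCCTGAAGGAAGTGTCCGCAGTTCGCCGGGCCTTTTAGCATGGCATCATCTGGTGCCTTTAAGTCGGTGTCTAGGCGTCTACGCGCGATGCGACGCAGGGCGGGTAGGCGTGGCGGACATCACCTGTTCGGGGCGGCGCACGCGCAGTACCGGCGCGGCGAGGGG
Between 34 bases (Speer4e) and 200 bases (Gm21190) of these windows lay under a peak, and no K49A peak reached into the 250 bases before any of the 9 copies. The nearest was a K49A 2 peak at 15714023 to 15714252, which ended just inside Speer4c and is therefore not marked.

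The longest run of bases found without change in all 9 copies was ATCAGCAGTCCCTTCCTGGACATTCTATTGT (31 bases). Searched on both strands, it was found in 10 of 32851 promoter windows of the same length in the table (0.0304%), all on chromosome 5, and the tenth gene was Gm7361. The motif CCAAT, searched on both strands, was in 8 of the 9 copies and in 33.8% of all promoter windows. None of the 9 copies held a CG dinucleotide in these bases, and their GC content was 46.4 to 49.2%. Sema3e held 7 CG dinucleotides, Pclo 25 and Cacna2d1 36, and the median over all promoter windows was 6, with a median GC content of 52.4%.

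Both genotypes had many peaks in the window, although the K49A lists were far shorter. The window held 30, 32, 44 and 49 peaks in WT 1 to WT 4, and 45 and 70 in K49A 1 and K49A 2. K49A 2 was the highest of all, and K49A 1 lay among the WT libraries. WT libraries averaged 38.8 ± 9.22 peaks (SD, n = 4) and the K49A pair 57.5 ± 17.7 (SD, n = 2), a difference of 18.8 peaks. Without K49A 2 the difference was 6.25 peaks and without K49A 1 it was 31.25.

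As a share of its own list, the window weighed much more in K49A. It held 6.43% of the 700 peaks of K49A 1 (95% interval 4.73 to 8.51%) and 6.88% of the 1017 peaks of K49A 2 (5.40 to 8.62%). In WT it held 0.265, 0.156, 0.198 and 0.176% of 11313, 20458, 22237 and 27903 peaks, with intervals (Clopper-Pearson, counting error only) that together ran from 0.107 to 0.378%. A share depends on how long its list is, and the window was chosen for dense K49A peaks. The intervals treat the peaks of a list as independent and are no comparison of the genotypes. In the 700 strongest peaks of each list the window held 56.5 peaks on average in K49A and 2 in WT.

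Peaks covered 11.8, 14.7, 17.9 and 19.8 kb of the window in WT 1 to WT 4, and 18.4 and 33.5 kb in K49A 1 and K49A 2. K49A 1 again lay within the WT range and K49A 2 above it. The means were 16.1 ± 3.53 kb (SD, n = 4) and 25.9 ± 10.7 kb (SD, n = 2), a difference of 9.89 kb that was 2.30 kb without K49A 2 and 17.5 kb without K49A 1.

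**Figure D1:**
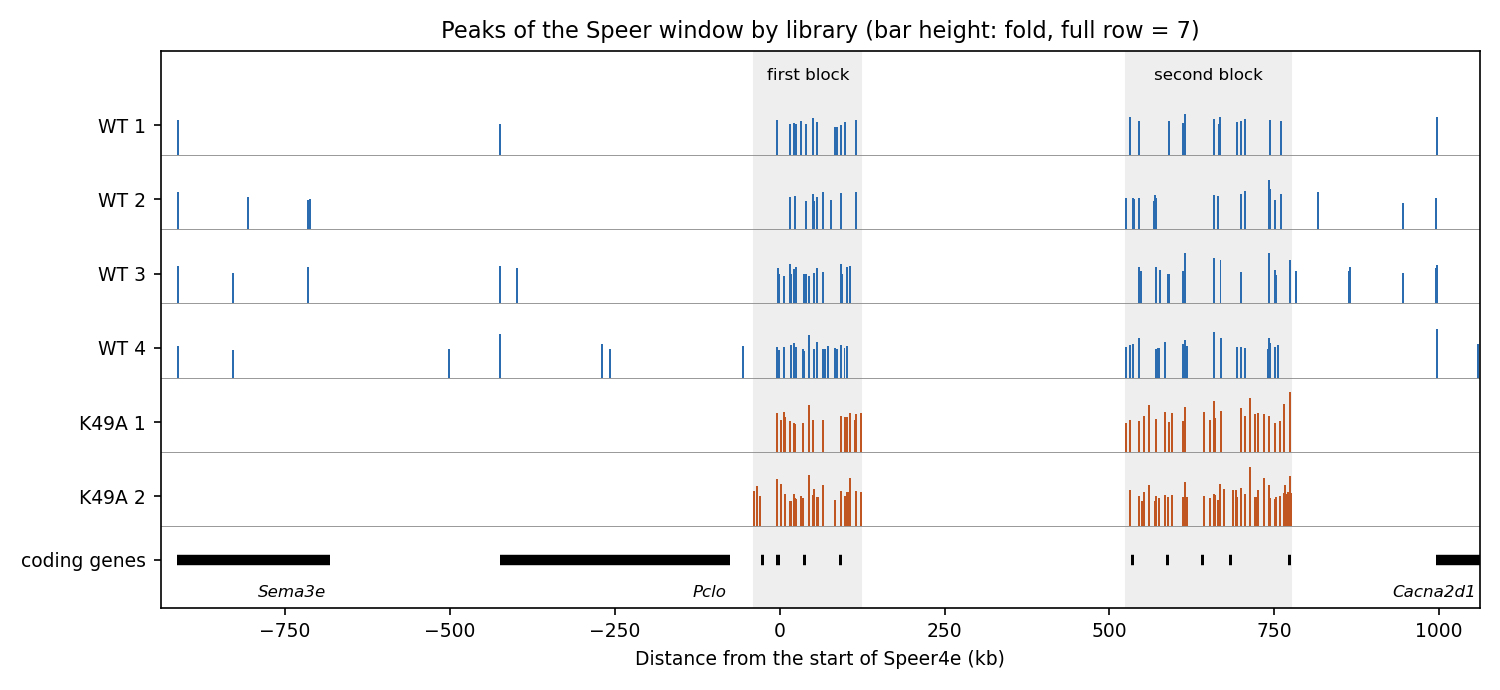
Position of every peak of the window in each library, as distance in kb from the start of Speer4e. Bar height is the authors' fold, with WT in blue and K49A in orange; grey bands are the 2 blocks and black bars the protein-coding genes. All K49A peaks lie in the grey bands, while the peaks at the starts of Sema3e, Pclo and Cacna2d1 are found in WT libraries.

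The K49A peaks fell into 2 blocks, separated by 401 kb that held no peak of any library and no gene of the RefSeq table. Whether assembly gaps or removed blacklisted regions lie in these 401 kb was not examined. Blocks were defined as chains of merged regions with a K49A peak less than 100 kb apart, so that no K49A peak can lie outside them. The first block ran from 14900077 to 15062572 (162 kb) and holds Gm9758, Speer4e, Gm10354 and Gm17019. The second ran from 15463395 to 15714252 (251 kb) and holds Gm21149, Gm21190, Gm21083, Speer4d and most of Speer4c. The first block held 14, 10, 18 and 19 peaks in WT 1 to WT 4 and 18 and 27 in K49A 1 and K49A 2. The second held 13, 15, 15 and 21 in WT and 27 and 43 in K49A. In the second block both K49A libraries lay above every WT library, and in the first K49A 1 lay below WT 4.

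Summed over both blocks, WT libraries had 27, 25, 33 and 40 peaks and K49A libraries 45 and 70. Leaving out the rest of the window removes WT peaks only, by the definition of a block, so that the groups do not overlap here although they do over the whole window. Peaks covered 9.37, 10.6, 12.9 and 15.1 kb of the blocks in WT and 18.4 and 33.5 kb in K49A. Of the 413 kb of both blocks, WT peaks took up 2.91 ± 0.613% (SD, n = 4) and K49A peaks 6.28 ± 2.60% (SD, n = 2). In windows of 100 kb fixed without regard to the peaks, both K49A libraries held more peaks than every WT library in 3 of the 15 windows of the stretch that had any peak, namely those from 15400001 to 15700000. Over the genome 4 of 16605 such windows did so (0.0241%), and these 3 are among them. The stretch was chosen on these peaks, so nothing is read from that share.

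**Figure D2:**
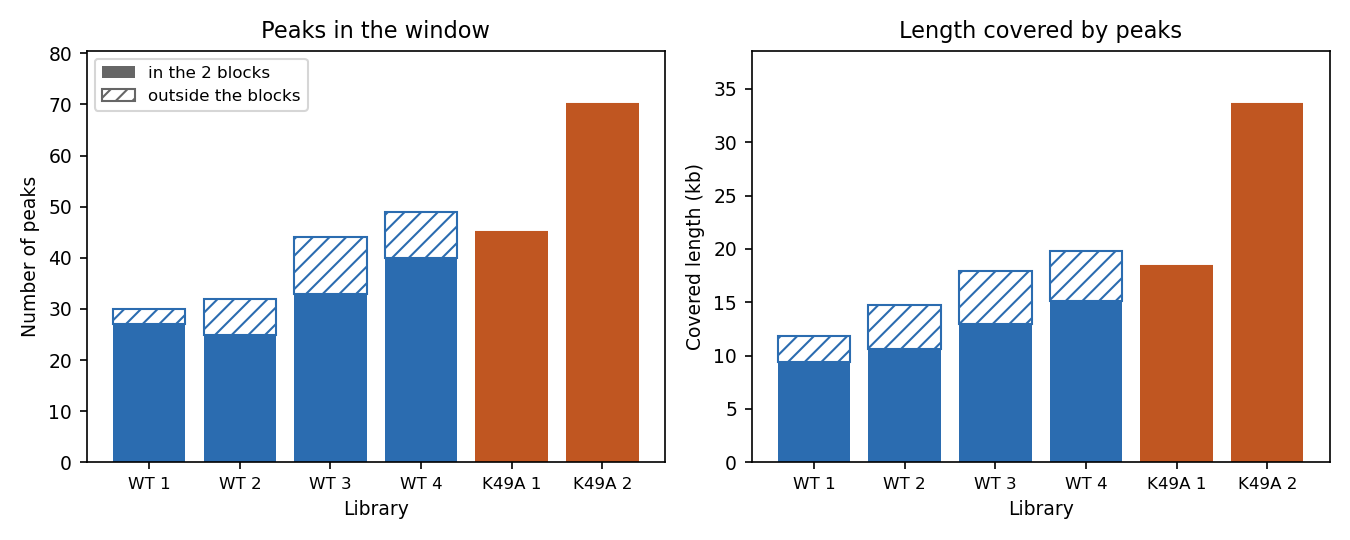
Number of peaks (left) and covered length in kb (right) per library, with filled bars for the 2 blocks and hatched bars for the rest of the window. K49A libraries have 45 and 70 peaks, all in the blocks by construction; WT libraries have 25 to 40 there and 3 to 11 outside.

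Outside the blocks, WT peaks lay at the starts of the 3 flanking genes and in scattered other places. WT 1 to WT 4 had 3, 7, 11 and 9 peaks there, which merged into 18 regions. At the start of Sema3e (14025276) all 4 WT libraries had a peak, with folds of 3.24, 3.50, 3.56 and 2.95. At Cacna2d1 (start at 15934264), whose region also covers the start of the long non-coding RNA gene Gm3510, the highest folds were 3.51, 2.97, 3.59 and 4.58 in WT 1 to WT 4. At Pclo (start at 14514906) WT 1, WT 3 and WT 4 had folds of 2.89, 3.49 and 4.14, and WT 2 had no peak. Sema3e and Cacna2d1 were the 2 regions of the window called in all WT and in neither K49A library, a pattern found in 13.8% of the 44749 merged regions of the genome. No region of the blocks had that pattern.

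Median folds of the peaks overlapped between the genotypes, whereas median −log10 q values were higher in both K49A libraries than in any WT library. Fold is the authors' enrichment of a peak over the local background of its own library. Its median in the window was 3.17, 3.04, 3.23 and 2.95 in WT 1 to WT 4, and 3.38 and 3.01 in K49A 1 and K49A 2, so the genotypes overlapped. In the rest of each list the median was 3.16, 2.93, 2.94 and 2.85 in WT and 3.65 and 3.12 in K49A, so that peaks of the window lay below the rest of their list in both K49A libraries and above it in all 4 WT libraries. The highest fold in the window was 3.82, 4.59, 4.78 and 4.58 in WT and 5.60 and 5.59 in K49A.

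The median −log10 q was 1.94, 2.42, 2.91 and 2.32 in WT 1 to WT 4 and 3.58 and 4.08 in K49A 1 and K49A 2, without overlap. In the rest of each list the medians were 1.94, 1.98, 2.13 and 2.08 in WT and 2.58 and 2.54 in K49A. A q belongs to its own list, and the lowest −log10 p of a window peak was 3.78 to 3.99 in WT and 4.98 and 5.30 in K49A, so equal q values do not stand for equal p values between lists.

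**Figure D3:**
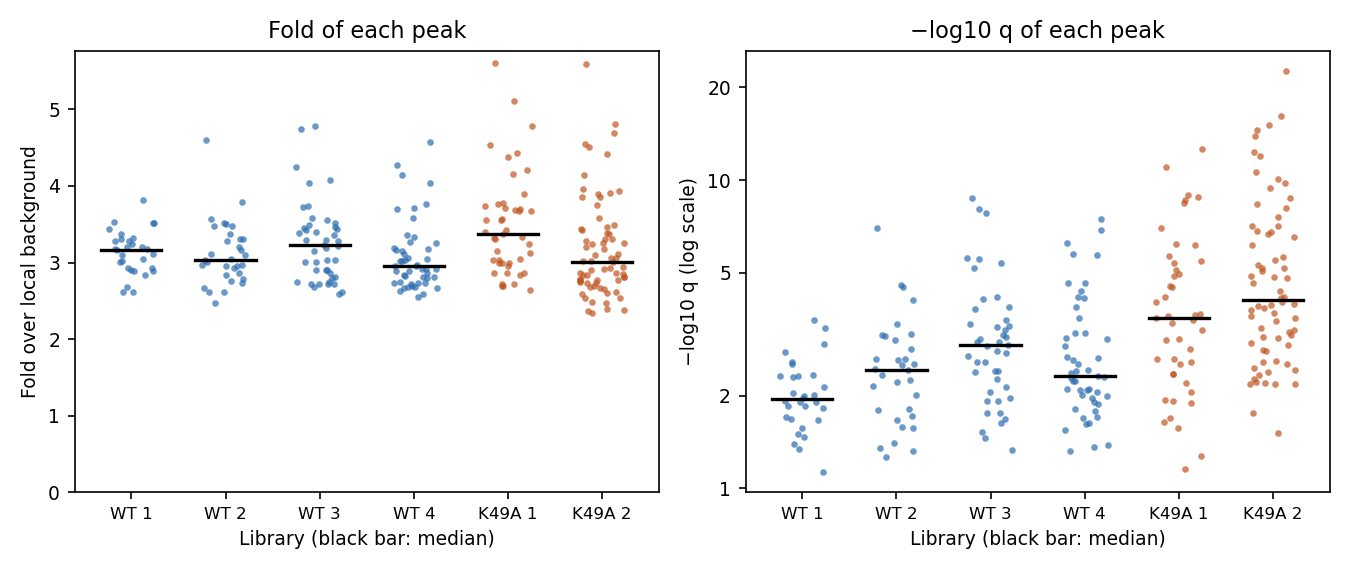
Fold (left, linear axis) and −log10 q (right, log axis) of every peak of the window by library; each point is a peak and the black bar is the median. Median folds lie between 2.95 and 3.38 in the 6 libraries, and median −log10 q is 1.94 to 2.91 in WT and 3.58 and 4.08 in K49A.

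Widths also differed less between genotypes inside the window than outside it. The median width was 306, 346.5, 327 and 331 bp in WT 1 to WT 4 and 340 and 361.5 bp in K49A 1 and K49A 2. Elsewhere it was 405, 557, 543 and 367 bp in WT and 299 and 290 bp in K49A. Window peaks were thus narrower than the rest of their list in every WT library and wider in both K49A libraries. The widest K49A peaks were at the same place in both libraries, at 15482856 to 15484382 (1527 bp) in K49A 1 and at 15482857 to 15484420 (1564 bp) in K49A 2, between Gm21149 and Gm21847. Midpoints of successive peaks within a block were 5.78 to 8.78 kb apart in WT (median of each library) and 7.26 and 5.17 kb in K49A.

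The lists shared many positions in the blocks. In K49A 1, 42 of 45 peaks (93.3%) overlapped a K49A 2 peak, and in K49A 2, 42 of 70 (60%) overlapped a K49A 1 peak, against 52.1 and 35.7% of their peaks elsewhere. The window was chosen for dense K49A peaks, so nothing is read from these higher shares. The 42 pairs of overlapping K49A peaks had midpoints 48 bp apart (median). Between 2 WT libraries the median shift was 39.5 to 106.5 bp, and between a WT and a K49A library 50 to 137 bp. The K49A peaks that overlapped any WT peak were 29 of 45 in K49A 1 (64.4%, 95% interval 48.8 to 78.1%) and 40 of 70 in K49A 2 (57.1%, 44.7 to 68.9%), against 80.2 and 65.5% elsewhere.

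Overlap of WT peaks with K49A peaks is given as a description, since window and blocks were both chosen for dense K49A peaks. Of the WT peaks in the blocks, 81.5, 80.0, 75.8 and 72.5% overlapped a K49A peak in WT 1 to WT 4. Elsewhere the shares were 4.42, 3.05, 2.87 and 2.13%, where K49A lists have few peaks. The share of block peaks in WT libraries that overlapped any other WT library was 77.8, 80.0, 69.7 and 75.0%.

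Of the 113 merged regions, 42 were called in both K49A libraries, all of them in the blocks. Of these 42, 6 were also called in all 4 WT libraries, 9 in 3, 7 in 2, 6 in 1 and 14 in none. Another 23 regions of the blocks were called in WT only, of which 18 were in 1 library, and 17 in 1 K49A library only. The pattern of both K49A and no WT library was found in 0.0469% of the merged regions of the genome (21 of 44749), and 14 of those 21 lay in the blocks. That concentration is how the window was chosen and is not a result. With K49A 1 left out, 30 regions had a K49A 2 peak and no WT peak.

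**Figure D4:**
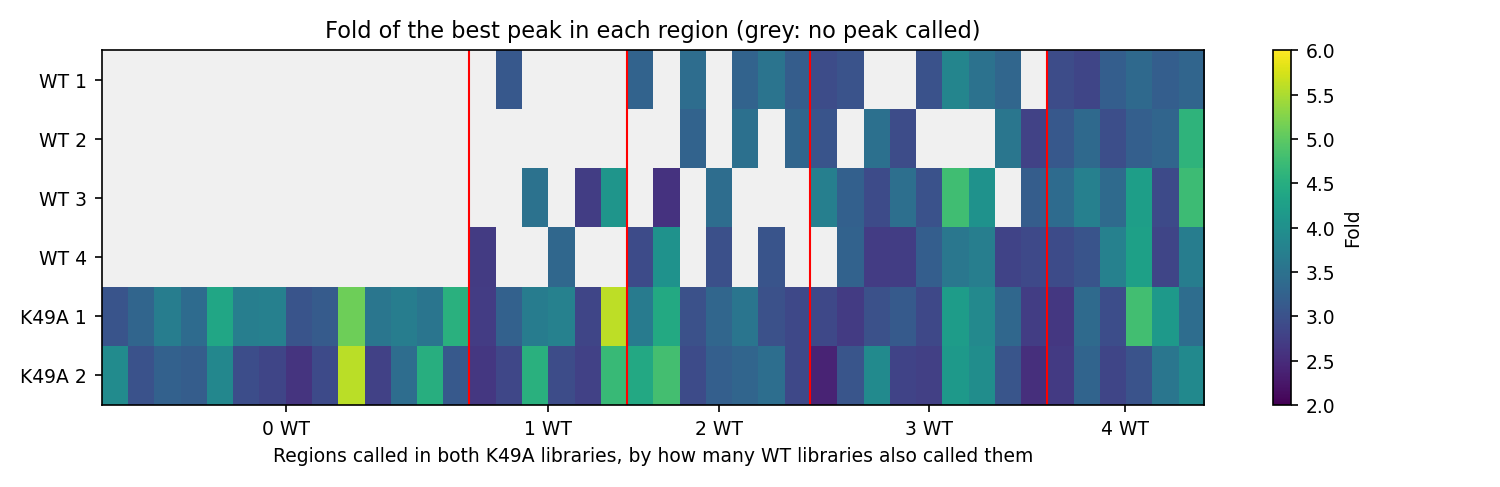
Fold of the best peak in each of the 42 regions called in both K49A libraries, one column per region, grouped by the number of WT libraries that also called it; grey means no peak was called. Folds of regions without a WT call (left, 14 columns) run from 2.60 to 5.59 in K49A, and those called in all 6 libraries (right, 6 columns) from 2.64 to 4.79 in K49A.

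The 14 regions called in both K49A and no WT library lay mostly in the second block, with 11 there and 3 in the first. The second block makes up 251 of the 413 kb of both blocks. Of the 28 regions called in both K49A libraries and in any WT library, 15 lay in it and 13 in the first. Whether the split differs between these classes was not tested. The 14 regions were 262 to 1239 bp wide (median 407 bp). None overlapped one of the 9 protein-coding copies, whose bodies make up only 10.3% of the length of the blocks. Of the 14, 9 lay in no annotated gene, 3 in the long non-coding RNA gene Gm30613 (at 15582328 to 15582868, 15590577 to 15590872 and 15597957 to 15598218), 1 in the pseudogene Speer8-ps1 and 1 in the pseudogene Speer4cos. Of the block length 59.3% lies in no gene, and 15 of the 28 regions also called in WT lay in none. Lying outside annotated genes is thus not particular to the 14. Median folds were 3.63 in K49A 1 and 3.14 in K49A 2, where the 28 regions that were also called in WT had 3.28 and 3.05. The 3 regions in Gm30613 had folds of 3.74, 3.03 and 3.16 in K49A 1 and of 2.84, 2.60 and 2.90 in K49A 2, in their order along the chromosome.

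The strongest of them was at 15651213 to 15651681, 607 bp from the pseudogene 4930572O03Rik. Its fold was 5.11 in K49A 1 and 5.59 in K49A 2, with −log10 q of 8.60 and 14.6. That fold was the highest of any K49A 2 peak in the window, and no WT library had a peak there. The region at 15498665 to 15499046, 12517 bp from Gm21847, had folds of 4.37 and 3.85. The region at 15673183 to 15673614 had 3.56 and 4.51, and the region in Speer4cos at 15702885 to 15703224 had 4.54 and 3.11. The order of these regions thus differed between the libraries.
The other regions of this pattern were at 14940385 to 14940995 (1910 bp from Speer4e), 14946836 to 14947118, 15061334 to 15062572, 15490941 to 15491270, 15533180 to 15533511 (3958 bp from Gm21190), 15659657 to 15660109 and 15663605 to 15664059. Their folds were 3.00 to 3.94 in either K49A library, apart from 2.94 in K49A 2 at 15533180 and 2.77 in K49A 2 at 15659657.

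The 6 regions called in all libraries are 5.31% of the merged regions of the window, where 0.574% of those of the genome have this pattern. The pattern needs a peak in both K49A libraries, and the window was chosen for dense K49A peaks. Nothing is therefore read from the higher share. The region inside the coding copy Gm17019, at 15031067 to 15031684, had folds of 2.83, 3.37, 3.74 and 3.04 in WT 1 to WT 4 and of 3.38 and 3.28 in K49A 1 and K49A 2. The region at the low end of the pseudogene Speer4cos, at 15679874 to 15681917, had 3.31, 4.59, 4.75 and 3.69 in WT and 3.42 and 3.89 in K49A. In both regions the K49A folds lay inside the WT range. In Gm30613, at 15596237 to 15596627, folds were 3.37, 3.20, 4.25 and 4.27 in WT and 4.79 and 3.02 in K49A, and the K49A libraries were the highest and the lowest of the 6. At 15637158 to 15637973, 3048 bp from Gm30417, both K49A folds (4.16 and 3.58) were above the WT folds of 3.20, 3.30, 2.90 and 2.84. In the remaining regions both K49A folds were below every WT fold. They were 2.64 and 2.69, against 2.93, 3.10, 3.40 and 2.91 in WT, at 14961609 to 14963016 in Speer8-ps1. At 15482814 to 15484420, 6278 bp from Gm21149, they were 2.953 and 2.832, against 3.198, 2.959, 3.385 and 3.763 in WT. Without WT 2, 10 regions were called in all remaining libraries.

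Regions called in both K49A and in some WT libraries included the one at 14982119 to 14982540 near Gm10354. It had the highest −log10 q of the window, 22.6 in K49A 2, with a fold of 4.81, and 8.93 in K49A 1, with a fold of 4.43. WT 3 and WT 4 had folds of 2.59 and 4.03 there, and WT 1 and WT 2 no peak. The region inside Speer4c, at 15711844 to 15712212, had folds of 5.60 in K49A 1 and 4.69 in K49A 2 and of 4.08 in WT 3 alone. The region at 15552390 to 15552737, in no annotated gene, had folds of 3.82, 4.78 and 3.59 in WT 1, WT 3 and WT 4 and of 4.21 and 4.15 in K49A.

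**Figure D5:**
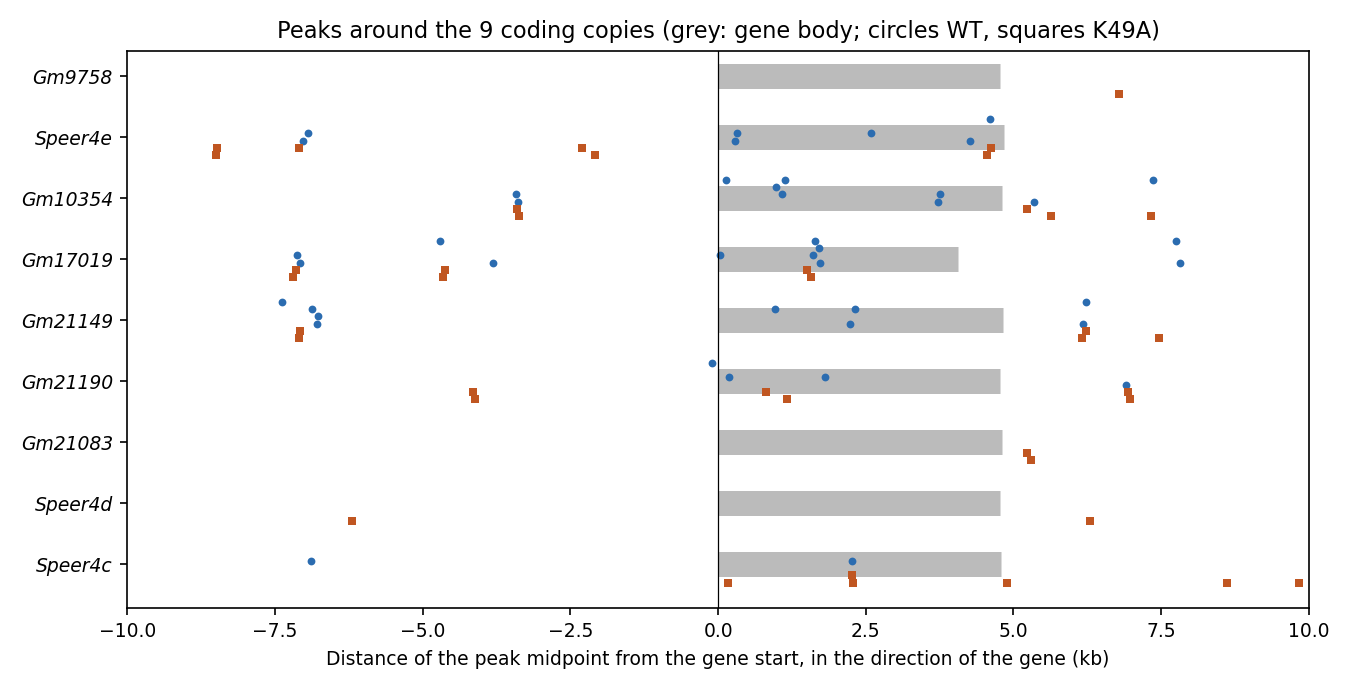
Midpoints of peaks within 10 kb of the starts of the 9 protein-coding copies, as distance in kb in the direction of the gene. Grey bars are gene bodies, blue circles WT peaks and orange squares K49A peaks; Gm21083 has K49A peaks only, all past its end, and Gm10354 has WT peaks only in its body.

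Peaks lay both inside and outside the gene bodies of the copies. Protein-coding bodies make up 10.3% of the length of the blocks, and 4, 4, 9 and 5 block peaks in WT 1 to WT 4 and 4 and 5 in K49A 1 and K49A 2 had their midpoint in one. The counts overlapped between the genotypes. As shares of all block peaks, of which K49A libraries had more, they were 14.8, 16, 27.3 and 12.5% in WT and 8.89 and 7.14% in K49A. Genes of any type make up 40.7% of the blocks, and 60 and 52.9% of K49A peaks and 39.4 to 55.6% of WT peaks were in none. Among the 9 copies, a peak midpoint lay in the body of 3, 3, 5 and 4 copies in WT 1 to WT 4 and of 4 in each K49A library. In the 5 kb before the start it was 2, 0, 1 and 2 copies in WT and 4 in each K49A library, and in the 5 kb past the end 3, 0, 0 and 4 copies in WT and 4 and 7 in K49A. The peaks before the start were 2, 0, 1 and 2 of 27, 25, 33 and 40 block peaks in WT 1 to WT 4. In K49A 1 they were 4 of 45, and in K49A 2 4 of 70. Past the end there were 3, 0, 0 and 4 peaks in WT and 4 and 10 in K49A. Nothing is read from the copy counts, because K49A libraries had more block peaks.

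Individual copies differed. Gm10354 had peaks in its body in all 4 WT libraries (2, 1, 2 and 1) and in neither K49A library, although both K49A libraries had peaks within 10 kb (2 and 3). Gm21083 had no peak within 10 kb in any WT library and 2 in each K49A library. Counted by midpoint, Speer4c had 1 peak in its body in WT 3, 1 in K49A 1 and 2 in K49A 2. Its peaks within 10 kb numbered 0, 0, 2 and 0 in WT 1 to WT 4 and 2 and 6 in K49A 1 and K49A 2. Speer4d had none in its body in any library, and within 10 kb had 1 in WT 1, 1 in WT 4 and 4 in K49A 2. Speer4e had 1, 0, 3 and 3 peaks within 10 kb in WT and 4 and 3 in K49A, and Gm21190 had 1, 0, 3 and 1 in WT and 3 in each K49A library. Gm21149 had 2, 4, 2 and 4 in WT and 3 in each K49A library, so that this count did not separate the genotypes. In its body it had 0, 2, 0 and 1 peaks in WT and 0 in each K49A library. Gm17019 had 4, 1, 3 and 5 peaks within 10 kb in WT and 3 and 4 in K49A. Gm9758 had a peak within 10 kb only in K49A 2, with 3.

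Where both K49A libraries had a peak at a copy, their peaks often overlapped and so lay at nearly the same distance from the start. Equal distances at one copy follow from that overlap, and no position tied to gene starts is read from them. The examples that follow were chosen after their values were seen, and 28 of the 70 K49A 2 peaks overlapped no K49A 1 peak, among them those near Gm9758 and Speer4d. Distances are given from the gene start to the midpoint of the peak, negative before the start. They were 2.27 and 2.28 kb at Speer4c in K49A 1 and K49A 2, and -4.14 and -4.12 kb at Gm21190. Past the gene ends they lay 6.94 and 6.97 kb from the start of Gm21190, 6.23 and 6.16 kb from that of Gm21149 and 5.23 and 5.31 kb from that of Gm21083. In WT, a peak 6.90 kb from the start of Gm21190 was called in WT 4, and peaks 6.23 and 6.18 kb from that of Gm21149 in WT 1 and WT 4. At 3 copies a K49A peak recurred at a like distance before the start, and at Speer4c WT 3 alone had one, at -6.89 kb. The K49A distances were -7.14 and -7.19 kb at Gm17019 and -7.08 and -7.10 kb at Gm21149, and -7.09 kb in K49A 1 at Speer4e, where K49A 2 had no such peak. WT 3 and WT 4 had a peak at -7.12 and -7.08 kb at Gm17019 and at -6.94 and -7.03 kb at Speer4e, and WT 1 to WT 4 had one at -7.38, -6.88, -6.77 and -6.80 kb at Gm21149.

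The Speer genes of the RefSeq table were counted as a list inside and outside the window. There were 15 such genes, 5 inside it (Speer4e, Speer8-ps1, Speer4d, Speer4cos and Speer4c) and 10 elsewhere. Inside, 4, 2, 4 and 4 of 5 had a peak within 10 kb in WT 1 to WT 4 and 4 and 5 in K49A. Outside, 4, 6, 8 and 6 of 10 had one in WT and 1 in each K49A library. Of all genes of the table on the chromosomes with peaks, 29.3, 43.7, 45.9 and 50% had a peak within 10 kb in WT 1 to WT 4 and 1.44 and 1.74% in K49A 1 and K49A 2. The gene with K49A peaks was Speer4f1, where both K49A libraries had a peak at 17467705 to 17468455 and 17467702 to 17468347 (folds 4.36 and 3.91) and WT 1 one at 17467765 to 17468429 (3.20). K49A 1 had another peak inside the body of Speer4f1, at 17477586 to 17477785 (fold 3.38). Speer4f2 had peaks over the 250 bases before its start in WT 2, WT 3 and WT 4 (folds 2.67, 2.45 and 2.45), and Speer4f1 in WT 1, WT 2 and WT 4, and neither had a K49A peak there. The 250 bases before Speer4a and Speer4b, on chromosome 5 beyond the window, were 96.6 and 98.1% identical to those of Speer4c over 203 and 206 aligned bases, and neither gene had a K49A peak within 10 kb. Within 10 kb, Speer4a had 2, 1, 2 and 1 WT peaks and Speer4b 1, in WT 3.

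Among 1312 windows of 2 Mb with any peak, tiled from the first base of each chromosome, the Speer window had the most K49A peaks, 115 in the sum of both libraries. It was followed by a window on chromosome 4 from 146000001, which holds zinc finger genes, with 23 and 54 K49A peaks and 67 to 128 WT peaks per library. Next were a window on chromosome 8 from 20000001, with defensin genes (25 and 49 in K49A, 40 to 59 in WT), and a window on chromosome 1 from 84000001 (15 and 28 in K49A, 30 to 72 in WT). In those 3 windows the mean K49A count was below the mean WT count (38.5 against 98.2, 37.0 against 50.5 and 21.5 against 46.8), whereas in the Speer window it was above (57.5 against 38.8). The neighbouring windows on chromosome 5 held 0 and 0 K49A peaks (from 12000001) and 2 and 1 (from 16000001), with 1 to 9 and 4 to 7 WT peaks. These windows were ranked by the same peaks that define the Speer window, and their differences were not tested.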

How the data were processed

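MNase-seq peak lists of mouse sperm were used, one per library (4 WT, 2 K49A), grouped and numbered by the sample titles. The labels name biological replicates, but the number of mice per library is not given. Per the submitters' processing notes, the tools were FastQC, BWA, Picard, SAMtools and MACS2, and the build was mm10. The sources used here give no versions, settings, input control or treatment of reads with several matches. The names of the deposited lists mark them as without blacklisted regions. The deposited lists give for each peak a fold, which is a ratio to the local background, and significance as −log10 of p and of q, all the authors' own values. Read depth is unknown, so intervals cover counting error only. They treat the peaks of a list as independent.

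Peaks wholly inside the window were kept with 1-based coordinates. The 6 lists were merged where peaks overlapped by at least 1 bp, which also defined sharing. Fold and q of a merged region are those of its peak with the highest −log10 q. Genes came from a RefSeq table for GRCm38.p6, and strands and upstream bases from a RefSeq promoter table. Upstream bases were aligned locally with Biopython 1.88 (match 1, mismatch -1). Interval code was tested on made-up intervals. No test was made, because the window was chosen on these lists. The members, lists and comparison windows were chosen with earlier results of these data known. Genes named are the 6 of the window's definition, all Speer genes, and genes of the window with a peak of both K49A libraries within 10 kb. Other coding genes of the blocks and of the flanks were added as copies or landmarks. The blocks, the 100 kb windows and the individual regions described beyond the patterns of both K49A only and of all libraries were chosen after their values were seen. Alternatives were stricter p or q limits, lists of 700 peaks, a wider window, more overlap or wider merging, libraries left out, and block peaks only, the last added after seeing the data.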

Additional observations from a re-analysis of the deposited data

Results flagged for a closer look

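Of 31 measures of the window (interval bounds included) compared among the 4 WT libraries, 1 had a library far from the others. The narrowest peak of WT 2 was 207 bp wide and that of the other WT libraries 200 bp. Chance alone marks about 1 in 20 such groups.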

How the results depend on the processing

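No paired analysis was possible because every result here is a value without a test. As values, like-numbered libraries differed by 15 peaks (number 1) and 38 peaks (number 2), on average 26.5. With a −log10 p of at least 5 the K49A minus WT difference was 33 peaks, 3 regions were called in all 6 libraries, and 54.5% of K49A peaks overlapped a WT peak. The mean number of peaks was then 57 in K49A and 24 in WT, against 57.5 and 38.8 without the limit. The limit thus removed almost only WT peaks, which the lists fix beforehand. The lowest −log10 p of a window peak was 4.98 and 5.30 in K49A, against 3.78 to 3.99 in WT. With a −log10 q of at least 2, 3 regions were called in all 6 libraries. With the 700 strongest peaks of each list the differences were 54.5 peaks and 24.6 kb, 35 regions were called in both K49A and no WT library and 0 in all 6, and 11.1% of K49A peaks overlapped a WT peak. With at least 0.5 covered, 1 region was called in all 6 libraries and 50.3% of K49A peaks overlapped. Leaving out each library in turn gave differences of 6.25 to 31.25 peaks and 2.30 to 17.5 kb, 14 to 30 regions in K49A only, 6 to 10 in all libraries, and 55 to 64.4% overlap. The difference in peaks and in covered length stayed above 0 under all alternatives run. Nothing is read from that sign, because the window was chosen for dense K49A peaks in these same lists. Fewer peaks enter the stricter settings by construction; the cause of the other shifts was not tested. Block peaks only (added after seeing the data) gave 26.2 peaks and 13.9 kb. Read depth is unknown, so no peak call can be set against the reads behind it.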
